A study of Mus musculus with 6 samples.

Results

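The genes described here are those of 4 fatty acid-binding proteins (Fabp3, Fabp4, Fabp5 and Fabp7), all 5 perilipins (Plin1 to Plin5) and the fatty acid receptor Cd36. They were taken by gene name from a table of raw RNA-seq counts for 34461 genes of the mouse ovary, and all 10 passed the filter on low counts that left 18959 genes for testing. Whole ovaries came from 7-month-old mice of a mixed 129SV and C57BL6/J background. Trim28 cKO females carried Trim28 flox/flox and the Nr5a1:Cre transgene, and control females carried either Trim28 flox/flox with no Cre or Trim28 flox/+ with Nr5a1:Cre. The sources used here do not give which control genotype each library had. Both groups thus carry a floxed Trim28 allele, and some controls may carry the Cre. There were 3 Trim28 cKO and 3 control libraries, and since the labels give 3 mice per genotype, 1 library was counted as 1 mouse. Nr5a1:Cre acts in the somatic cells of the gonad and is not directed to germ cells, blood vessels or immune cells. Reads are from the whole organ, and a smaller number of cells of one type cannot be told apart from less RNA per cell.

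Fatty acid-binding proteins are small cytosolic carriers that hold long-chain fatty acids between the membrane, the nucleus and the organelles that use them. Perilipins coat the lipid droplet and set how easily lipases reach the triglycerides or cholesteryl esters inside it. In the ovary, luteal and thecal cells keep cholesteryl esters in such droplets as a store for steroid synthesis, and macrophages that take up dead cells also fill with lipid.

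Total counts were between 32441021 and 48508461 in the Trim28 cKO libraries and between 23615580 and 45033787 in the control libraries, with control replicate 2 the shallowest. Levels are given in CPM, read counts relative to the library total in the usual per-megaread unit after TMM scaling, as mean ± SD of 3 libraries per group. Log2 fold changes are Trim28 cKO over control with their standard error (SE), and p-values are from the quasi-likelihood test of edgeR, adjusted over all 18959 tested genes, with 0.05 as the threshold. Trim28 transcripts stood at 48.8, 55.6 and 71.2 CPM in cKO libraries, against 155, 178 and 155 CPM in the control libraries. The mutant ovaries had higher levels of all 12 Sertoli cell markers and lower levels of 7 of 13 granulosa cell markers, with 6 granulosa markers not past the threshold. Granulosa markers still summed to between 2592 and 2862 CPM in Trim28 cKO libraries, and to between 3910 and 4429 CPM in control libraries. Inha carried much of these sums, at 1725, 1494 and 1254 CPM in Trim28 cKO libraries, against 1326, 1922 and 1385 CPM in control libraries. Esr2, the marker with the lowest fold change, was at 9.49, 22.6 and 17.9 CPM in Trim28 cKO libraries, against 127, 151 and 130 CPM in control libraries. The sum thus does not measure how many granulosa cells remained.

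In Trim28 cKO ovaries Fabp3 and Fabp5 were upregulated and Plin4 and Plin5 were downregulated. The other 6 members, Fabp4, Fabp7, Plin1, Plin2, Plin3 and Cd36, did not pass the threshold. Among all tested genes, 20.2% were higher and 16.8% were lower, so 2 of 10 members in each direction is close to the share of all genes and sets the members apart in neither. The libraries of both groups did not overlap for 5 of 10 members, Fabp3, Fabp4, Fabp5, Plin4 and Plin5, and for 52.8% of all tested genes. The log2 fold change was positive for 8 members and negative for 2, with a median of 0.66 over the members and 0.0010 over all tested genes. Leaving out Trim28 cKO replicate 2 gave 4 members higher and 1 lower, and the count of higher members was also 4 with the Wald test of DESeq2.

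**Figure D1:**
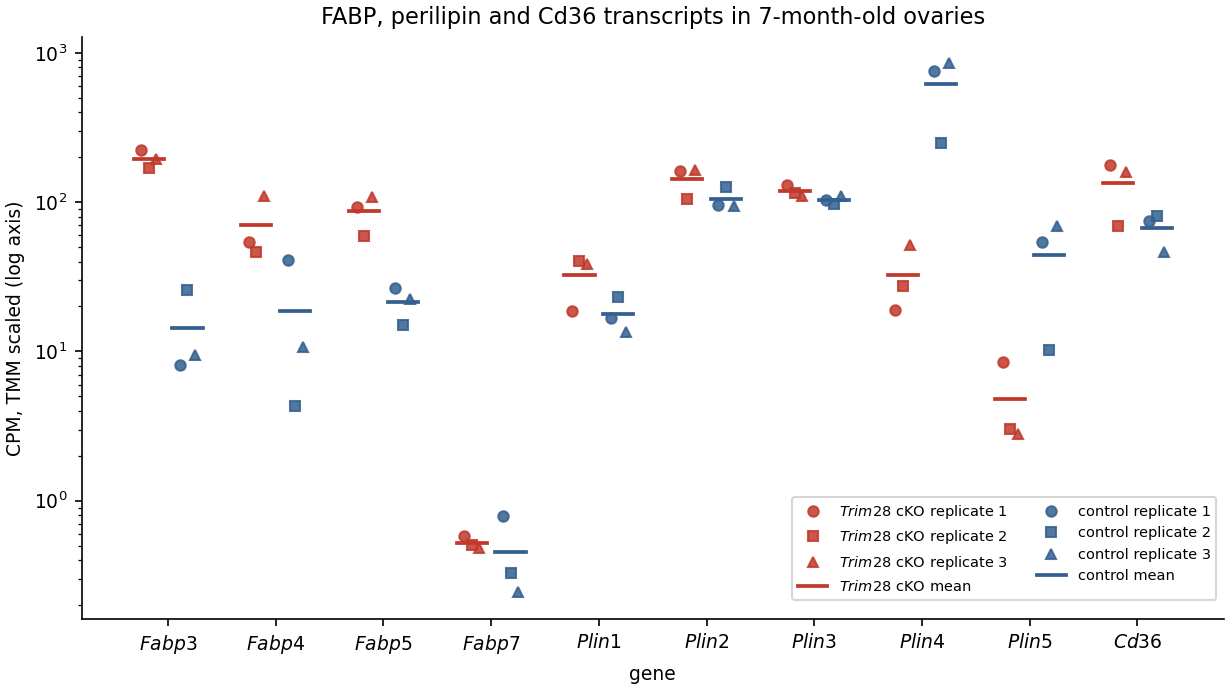
Level of each member in each library. The vertical axis is CPM on a log scale, points are libraries with the symbol marking the replicate number, and horizontal bars are group means. Fabp3 and Fabp5 lie higher in all Trim28 cKO libraries (red), Plin4 and Plin5 lie lower, and Fabp7 stays below 1 CPM in both groups.

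Of the 4 fatty acid-binding proteins, 2 were upregulated and none was downregulated, beside 20.2% higher and 16.8% lower among all tested genes. Fabp3 encodes the heart-type protein, abundant in cardiac and skeletal muscle, and lies at chr4:130308595-130315463 of mm10 on the plus strand. It was at 223, 168 and 194 CPM in Trim28 cKO libraries, against 8.13, 25.7 and 9.52 CPM in control libraries. The lowest Trim28 cKO library was thus well above the highest control library, control replicate 2, and the groups did not overlap. Fabp3 was 13.6-fold higher in Trim28 cKO ovaries (log2 fold change 3.77, SE 0.46, adjusted p = 0.0011 by edgeR). Without control replicate 2, whose level was the highest of the controls, the log2 fold change was 4.46. Counts for Fabp3 were 6954, 7366 and 9273 in the Trim28 cKO libraries, against 317, 629 and 430 in the control libraries, which is deep enough that counting error is small beside the spread between mice.

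Some reads of Fabp3 may also fit other annotated genes. The annotated pseudogene Fabp3-ps1 had 27, 22 and 37 counts in Trim28 cKO libraries, against 1, 4 and 1 in control libraries (log2 fold change 3.53, SE 0.68, adjusted p = 0.00711 by edgeR). These low counts follow the same order of groups as Fabp3. Only uniquely aligned reads were counted, so reads that fit the gene and its copy equally well are in neither count. On the opposite strand, Gm10570 overlaps 80 bases and Zcchc17 overlaps 81 bases at the ends of Fabp3. Zcchc17 was at 38.9 ± 6.65 CPM in Trim28 cKO ovaries and 32.9 ± 1.67 CPM in control ovaries (log2 fold change 0.24, SE 0.14, adjusted p = 0.209 by edgeR). The libraries marked strand, but whether counting used it was not given in the sources used here.

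The 250 bases before the RefSeq start of Fabp3 are shown because it had the highest fold change of all members (GRCm38.p6, which is mm10, chr4:130308488-130308737, plus strand, 5′ to 3′, no capitals because no searched motif lies in them). The RefSeq start lies downstream of the gene start given above, so part of these bases lies within the gene as counted.
Fabp3: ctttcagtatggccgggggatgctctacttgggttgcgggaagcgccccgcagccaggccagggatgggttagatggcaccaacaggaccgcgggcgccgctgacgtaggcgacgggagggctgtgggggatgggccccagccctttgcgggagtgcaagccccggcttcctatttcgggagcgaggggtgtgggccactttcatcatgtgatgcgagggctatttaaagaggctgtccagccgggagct

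Fabp5 encodes the epidermal-type protein, also made by macrophages, and Fabp4 the adipocyte-type protein, which macrophages and capillary endothelium make as well. They lie 187 kb apart on chromosome 3, Fabp5 at chr3:10012548-10016607 on the plus strand and Fabp4 at chr3:10204088-10208576 on the minus strand. Fabp5 was at 93.0, 59.5 and 109 CPM in Trim28 cKO libraries, against 26.5, 15.0 and 22.6 CPM in control libraries. All Trim28 cKO libraries lay above all control libraries. Fabp5 was 4.08-fold higher (87.2 ± 25.3 CPM in Trim28 cKO ovaries and 21.4 ± 5.87 CPM in control ovaries, log2 fold change 2.03, SE 0.28, adjusted p = 0.00193 by edgeR).

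Fabp4 was at 54.5, 46.3 and 109 CPM in Trim28 cKO libraries, against 40.7, 4.29 and 10.7 CPM in control libraries. The groups did not overlap, but control replicate 1 came close to the lowest Trim28 cKO library while the other controls were far below. The spread between controls was as large as their mean, and the difference did not pass the threshold (70.0 ± 34.2 CPM in Trim28 cKO ovaries and 18.6 ± 19.4 CPM in control ovaries, log2 fold change 1.91, SE 0.76, adjusted p = 0.0905 by edgeR). It passed with limma-voom (log2 fold change 2.28, adjusted p = 0.0391) and with control replicate 1 left out (log2 fold change 3.21, adjusted p = 0.0108), and over all 15 alternatives its adjusted p lay between 0.0108 and 0.312.

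Fabp7, the brain-type protein of radial glia, was hardly detected. It was at 0.577, 0.502 and 0.481 CPM in Trim28 cKO libraries, against 0.795, 0.327 and 0.243 CPM in control libraries. The Trim28 cKO libraries all fell within the range of the control libraries (log2 fold change 0.18, SE 0.49, adjusted p = 0.803 by edgeR). Of 6 other genes of the family, only Fabp9, of the testis, passed the filter, at 0, 0.297 and 0.0418 CPM in Trim28 cKO libraries, against 1.38, 0.531 and 0 CPM in control libraries (adjusted p = 0.234 by edgeR). Fabp1, Fabp2, Fabp6 and Fabp12 were below the filter, at no more than 0.266 CPM in any library, and Pmp2 was not analysed here. Of the family genes measured, Fabp3, Fabp4 and Fabp5 were the only ones above 2 CPM in any library.

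**Figure D2:**
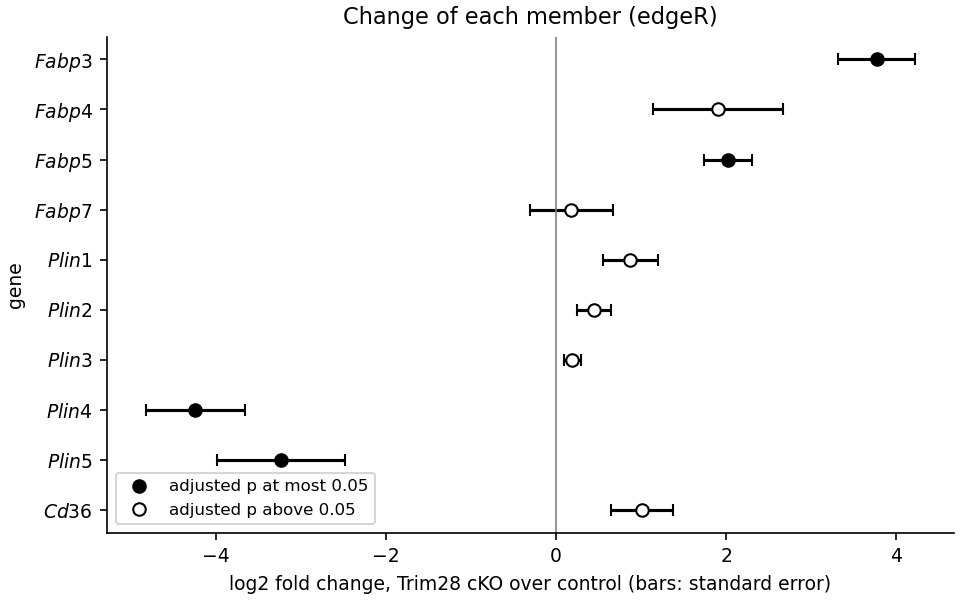
Change of each member between genotypes. Points are log2 fold changes, Trim28 cKO over control, bars are standard errors, and filled points passed an adjusted p of 0.05. Only Fabp3, Fabp5, Plin4 and Plin5 are filled, and the bars of Fabp4 and Plin5 are the widest.

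Of the 5 perilipins, 2 were downregulated and none was upregulated, beside 16.8% lower and 20.2% higher among all tested genes. Plin4 codes for a long droplet coat protein of adipocytes and muscle and lies at chr17:56100591-56109803 on the minus strand. It was at 18.9, 27.3 and 51.5 CPM in Trim28 cKO libraries, against 758, 250 and 852 CPM in control libraries. Control replicate 2 was the lowest control and was still above every Trim28 cKO library. Plin4 was at 0.0526 times the control level (32.6 ± 17.0 CPM in Trim28 cKO ovaries and 620 ± 324 CPM in control ovaries, log2 fold change -4.25, SE 0.58, adjusted p = 0.0018 by edgeR).

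Plin5, whose protein ties droplets to mitochondria in oxidative tissues, lies at chr17:56111601-56117596 on the same strand, with 1797 bases between its end and the start of Plin4. It was at 8.46, 3.04 and 2.80 CPM in Trim28 cKO libraries, against 53.7, 10.3 and 69.1 CPM in control libraries. The groups did not overlap, though Trim28 cKO replicate 1 and control replicate 2 were close. Plin5 was downregulated (4.77 ± 3.20 CPM in Trim28 cKO ovaries and 44.3 ± 30.5 CPM in control ovaries, log2 fold change -3.24, SE 0.76, adjusted p = 0.0149 by edgeR). Its call was lost without Trim28 cKO replicate 2 (log2 fold change -2.99, adjusted p = 0.0600) and with no filter on low counts (log2 fold change -3.24, adjusted p = 0.106), and without Trim28 cKO replicate 1 the log2 fold change was -3.92.

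Both genes were lowest among the controls in replicate 2 and highest in replicate 3. Among the Trim28 cKO libraries the order differed, with Plin4 highest in replicate 3 and Plin5 highest in replicate 1. Beside Plin4 and Plin5, 8 tested genes have their start within 100 kb of that of Plin4, of which 2 were upregulated in Trim28 cKO ovaries, 1 was downregulated and 5 missed the threshold. The higher ones included Lrg1, a secreted leucine-rich glycoprotein gene that ends 2083 bases upstream of Plin5 on the same strand. Lrg1 was at 67.5, 44.2 and 37.3 CPM in Trim28 cKO libraries, against 1.67, 1.67 and 1.88 CPM in control libraries (log2 fold change 4.83, SE 0.26, adjusted p = 0.000131 by edgeR). Lrg1, upregulated without overlap of the groups, was thus the next gene to the downregulated Plin5. Sema6b, a semaphorin, was also higher (log2 fold change 0.64, SE 0.13), and Chaf1a, a chromatin assembly factor subunit, was lower (log2 fold change -1.21, SE 0.12). Hdgfl2, which overlaps the end of Plin4 by 17 bases on the opposite strand, was at 101 ± 17.2 CPM in Trim28 cKO ovaries and 127 ± 13.9 CPM in control ovaries (log2 fold change -0.33, adjusted p = 0.117 by edgeR).

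**Figure D3:**
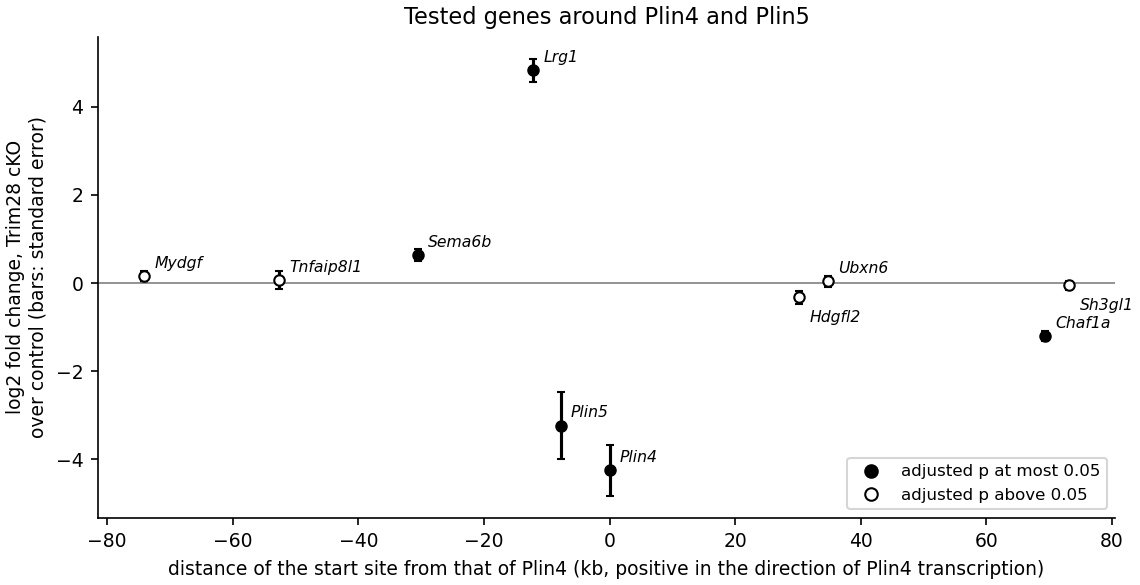
Tested genes around Plin4 and Plin5 on chromosome 17. The horizontal axis is the distance in kb of each gene's start from that of Plin4, positive in the direction in which Plin4 is transcribed, and the vertical axis is the log2 fold change, Trim28 cKO over control, with its standard error. Plin4 and Plin5 lie at -4.25 and -3.24 and the next gene, Lrg1, at 4.83.

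The bases before the starts of Plin4 and Plin5 are shown because both genes were downregulated side by side. They are from RefSeq (GRCm38.p6, minus strand, written 5′ to 3′), for Plin4 chr17:56109783-56110032 and for the upstream of 2 annotated Plin5 starts chr17:56117549-56117798. Capitals mark AGGTCA, the element to which PPAR, RXR and other nuclear receptors bind as a repeat.
Plin4: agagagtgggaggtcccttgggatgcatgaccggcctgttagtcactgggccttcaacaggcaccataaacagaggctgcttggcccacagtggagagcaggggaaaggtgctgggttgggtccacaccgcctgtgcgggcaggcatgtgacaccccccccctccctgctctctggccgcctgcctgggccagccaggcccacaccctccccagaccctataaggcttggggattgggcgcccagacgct
Plin5: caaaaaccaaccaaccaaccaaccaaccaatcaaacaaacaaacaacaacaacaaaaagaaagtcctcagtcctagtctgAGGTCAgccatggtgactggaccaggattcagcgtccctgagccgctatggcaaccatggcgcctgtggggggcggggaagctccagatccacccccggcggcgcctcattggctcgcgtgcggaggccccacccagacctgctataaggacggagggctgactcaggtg

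Promoter windows, 250 bases before to 50 after the start, were found for 8 of the 10 members, in 9 windows, with none for Fabp4 and Fabp5. Starts are those of RefSeq and can differ from the gene starts of the counted annotation. The Cd36 window lies within its gene as counted. AGGTCA, searched on both strands, was in a window of 4 of these 8 genes, Cd36, Fabp7, Plin2 and Plin5, and in 16.3% of all 32851 mouse windows of that length. In the upstream Plin5 window it lay at -170 to -165 from the start on the strand of the gene. The repeat of AGGTCA after 1 base was in no member window and in 0.0396% of all windows. Of the other motifs searched on both strands, AACAAT was in the window of Cd36 alone (10.7% of all windows), and CAAGGTCA (1.56%), GTAAACA (3.65%) and TATAAA (13.6%) were in none. CAAGGTCA overlaps the first motif, which it contains whole. The 4 genes with AGGTCA held 1 that was downregulated and 3 that did not pass the threshold. A match is only a match of letters in these windows.

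The other 3 perilipins had positive fold changes that did not pass the threshold. Plin2, the perilipin of most non-adipose cells including steroidogenic cells and foamy macrophages, was at 162, 105 and 163 CPM in Trim28 cKO libraries, against 95.1, 126 and 93.7 CPM in control libraries. Trim28 cKO replicate 2 lay below control replicate 2, so the groups overlapped (log2 fold change 0.45, SE 0.20, adjusted p = 0.121 by edgeR). Without Trim28 cKO replicate 2 the change passed the threshold (log2 fold change 0.64, adjusted p = 0.0251). Plin1, which guards the large droplets of adipocytes, was at 18.8, 40.6 and 38.6 CPM in Trim28 cKO libraries, against 16.8, 23.3 and 13.5 CPM in control libraries. Only Trim28 cKO replicate 1 lay within the range of the controls (log2 fold change 0.87, SE 0.32, adjusted p = 0.0725 by edgeR). Plin1 passed with DESeq2 (adjusted p = 0.0246) and without Trim28 cKO replicate 1 (log2 fold change 1.15, adjusted p = 0.0151). Plin3, a perilipin found in the cytosol and on new droplets in most cells, was the steadiest member. It was at 130, 115 and 110 CPM in Trim28 cKO libraries, against 103, 97.1 and 110 CPM in control libraries (log2 fold change 0.19, SE 0.099, adjusted p = 0.173 by edgeR).

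Cd36 encodes a surface receptor for long-chain fatty acids and oxidised lipoproteins on macrophages, capillary endothelium and adipocytes. It was at 176, 69.2 and 159 CPM in Trim28 cKO libraries, against 75.2, 80.2 and 46.1 CPM in control libraries. Trim28 cKO replicates 1 and 3 lay above every control library, and replicate 2 lay among them. The difference did not pass the threshold (135 ± 57.5 CPM in Trim28 cKO ovaries and 67.2 ± 18.4 CPM in control ovaries, log2 fold change 1.01, SE 0.36, adjusted p = 0.0677 by edgeR), but did with DESeq2 (adjusted p = 0.0154) and without Trim28 cKO replicate 2 (log2 fold change 1.33, adjusted p = 0.00989). Trim28 cKO replicate 2 was also the lowest of its group for Fabp3, Fabp4, Fabp5 and Plin2.

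To set levels of different genes beside each other, the deposited normalised signal per kb of median transcript length was used. By this measure Fabp3 was the highest of the 10 members in Trim28 cKO ovaries and ranked 6 in control ovaries, while Plin4 ranked 8 in Trim28 cKO ovaries and 2 in control ovaries. The summed signal of the 4 fatty acid-binding proteins was 12727, 9377 and 12487 per kb in Trim28 cKO libraries, against 1468, 1517 and 990 per kb in control libraries. The sum was thus 8.70 times as high in Trim28 cKO ovaries, without overlap (p = 0.1, two-sided exact permutation test, the smallest that 3 libraries against 3 can give). Fabp3 made up 80.4%, 81.4% and 71.3% of the family's signal in Trim28 cKO libraries, against 25.2%, 77.3% and 43.3% in control libraries. The share in control replicate 2 was as high as in Trim28 cKO libraries, and the groups overlapped (p = 0.2, exact permutation test). Fabp5 made up a smaller share in every Trim28 cKO library (13.1%, 11.2% and 15.6%, against 32.0%, 17.6% and 40.0% in control libraries, p = 0.1, exact permutation test), although its own level was higher there. These values depend on the transcript lengths used. The deposited median lengths of Fabp4 and Fabp5 are 2563.5 and 2112.5 bases, and those of their main transcripts 896 and 987 bases. With main transcript lengths the ratio of the sums was 6.68, and Fabp3 ranked 8 in control ovaries. Its share was then 63.5%, 64.5% and 50.3% in Trim28 cKO libraries, against 11.9%, 60.5% and 24.8% in control libraries.

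The perilipin sum was 11775, 8936 and 12166 per kb in Trim28 cKO libraries, against 13234, 10909 and 13977 per kb in control libraries. These ranges overlapped, with a ratio of 0.862 (p = 0.3, exact permutation test), but what the sum was made of differed. Plin2 made up 73.7%, 62.1% and 71.7% of it in Trim28 cKO libraries, against 38.0%, 61.6% and 35.2% in control libraries. Plin4 made up 1.05%, 1.98% and 2.78% in Trim28 cKO libraries, against 37.2%, 14.9% and 39.3% in control libraries. Control replicate 2 lay nearest to the Trim28 cKO libraries for both shares (p = 0.1 each, exact permutation test). Over the 9 shares of both families, the exact p was never below 0.1, so none can pass a threshold of 0.05 with this number of mice. The ratio of the perilipin sums depends on the transcript lengths used. The deposited median length of Plin2 is 706.5 bases and that of its main transcript 1888 bases, and with main transcript lengths the ratio was 0.581 (p = 0.1, exact permutation test) and Plin4, not Plin2, was the highest perilipin in control ovaries.

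**Figure D4:**
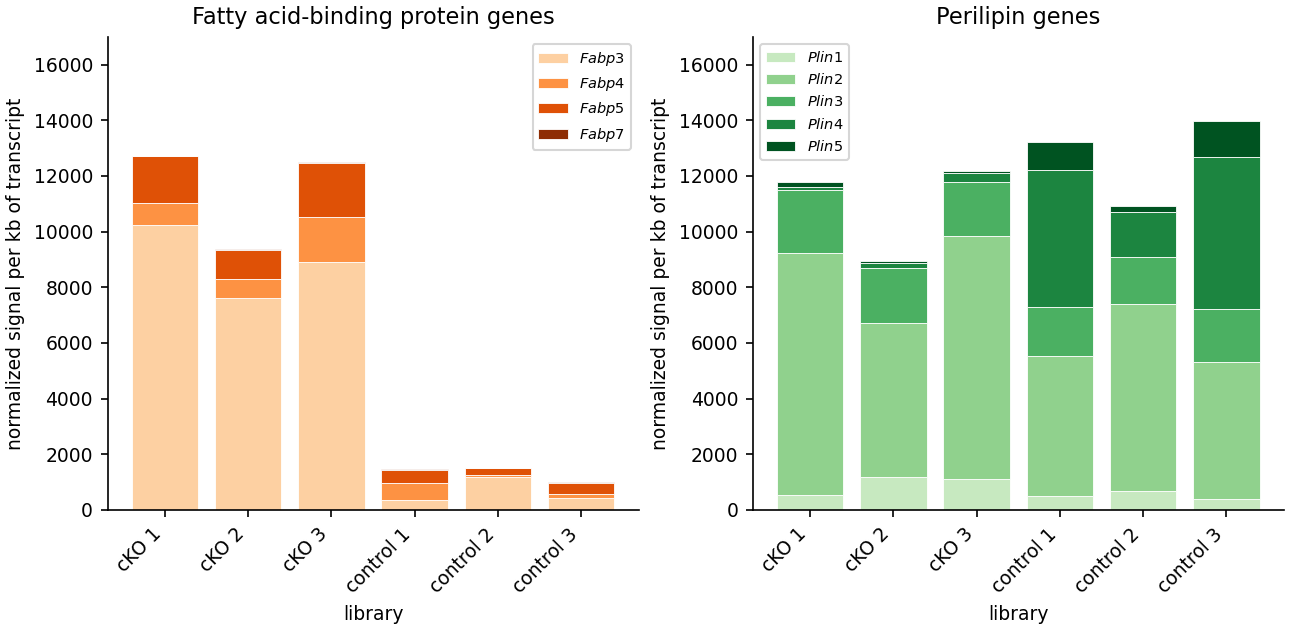
Make-up of both families in each library. Stacked bars are the deposited normalised signal per kb of median transcript length, fatty acid-binding protein genes on the left and perilipin genes on the right, on the same scale. Fabp3 fills most of the left bars in Trim28 cKO libraries, and the Plin4 block of the control bars on the right is thin in Trim28 cKO libraries.

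Several cell types that carry these transcripts also differed between the groups or between libraries, and their part in the results was not tested. All 16 macrophage markers were higher in Trim28 cKO ovaries, with a median log2 fold change of 2.93. They summed to 7185, 3890 and 6963 CPM in Trim28 cKO libraries, against 722, 671 and 612 CPM in control libraries, with Gpnmb (log2 fold change 5.20), a lysosomal glycoprotein of lipid-laden macrophages, and the lipid receptor Trem2 (log2 fold change 3.68) having the highest fold changes. Trim28 cKO replicate 2, the lowest of its group for Fabp3, Fabp4, Fabp5, Cd36 and Plin2, had the lowest macrophage sum of its group. Among the controls the order differed. Control replicate 2, whose macrophage sum lay between those of replicates 1 and 3, was lowest for Fabp4 and Fabp5 and highest for Fabp3, Cd36 and Plin2.

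The corpus luteum markers were lower in Trim28 cKO ovaries for 7 of 8, and 1 missed the threshold. Their sums were 2805, 2067 and 2106 CPM in Trim28 cKO libraries, against 11150, 5241 and 11028 CPM in control libraries. Akr1c18, which inactivates progesterone at the end of luteal life, had a log2 fold change of -6.63, and the prostaglandin F receptor Ptgfr one of -4.74. Control replicate 2, the lowest control for Plin4 and Plin5, also had the lowest luteal sum of the controls. Among the Trim28 cKO libraries, replicate 1 had the highest luteal sum, the lowest Plin4 and the highest Plin5. The part of luteal cells in these levels was not tested.

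Adipocyte markers did not follow genotype but varied between libraries. They summed to 30.3, 118 and 357 CPM in Trim28 cKO libraries, against 213, 18.7 and 16.2 CPM in control libraries. Of 12 markers only Acvr1c, an activin receptor-like kinase, was higher (log2 fold change 1.51) and 11 did not pass the threshold. Adiponectin (Adipoq), the defining adipocyte hormone, was at 0.513, 13.7 and 37.6 CPM in Trim28 cKO libraries, against 16.8, 0.0816 and 0.155 CPM in control libraries, so Trim28 cKO replicates 2 and 3 and control replicate 1 held adipocyte RNA. Fabp4 was highest in Trim28 cKO replicate 3 and, among controls, in replicate 1. The lowest Fabp4 of the Trim28 cKO group was in replicate 2, whose adiponectin lay between those of replicates 1 and 3. In the remaining 3 libraries, where adiponectin was near 0, Fabp4 was at 54.5 CPM in Trim28 cKO replicate 1, against 4.29 and 10.7 CPM in control replicates 2 and 3. A fit of these 3 libraries alone was added after the marker levels were seen. It holds a lone Trim28 cKO library and cannot show the spread between mutants, so only effect sizes are given. The log2 fold changes were 2.85 for Fabp4, 3.68 for Fabp3, 2.31 for Fabp5, 0.041 for Plin1, -4.86 for Plin4 and -2.23 for Plin5. The part of adipocyte RNA in these levels was not tested. Plin1 was at 18.8 CPM in Trim28 cKO replicate 1, against 23.3 and 13.5 CPM in control replicates 2 and 3.

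**Figure D5:**
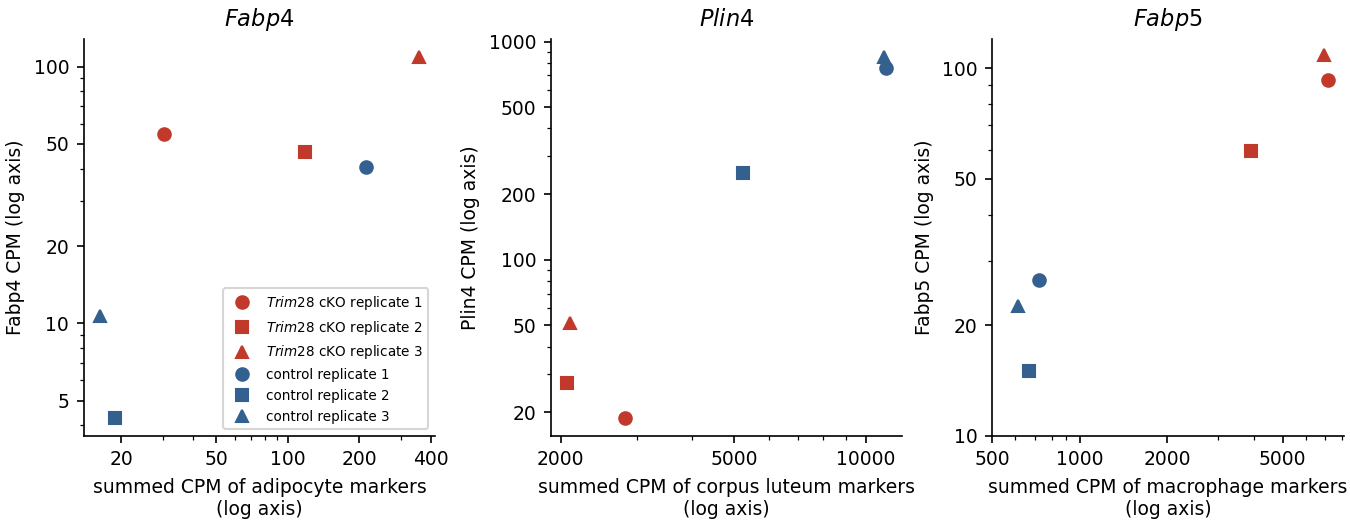
Member levels beside summed marker levels in the same libraries. Each panel plots 1 member in CPM (Fabp4, Plin4 or Fabp5) against the summed CPM of adipocyte, corpus luteum or macrophage markers, with both axes on a log scale, Trim28 cKO libraries in red and control libraries in blue. Fabp4 in Trim28 cKO replicate 1 stands at 54.5 CPM with an adipocyte sum of 30.3 CPM. Control replicate 2 has the lowest Plin4 and the lowest luteal sum of the controls, and Trim28 cKO replicate 1 the lowest Plin4 and the highest luteal sum of its group.

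Of 14 endothelial markers, 3 were higher, 1 was lower and 10 did not pass the threshold. Their sums lay between 953 and 1189 CPM in Trim28 cKO libraries, and between 874 and 980 CPM in control libraries. Of 8 Leydig and theca markers, 3 were higher, led by the Leydig hormone Insl3 (log2 fold change 4.85), 4 were lower, led by Hsd3b1 (log2 fold change -2.48), and 1 did not pass the threshold. Lhcgr, among the lower ones (log2 fold change -0.92), is also on the corpus luteum list, so these 2 lists are not separate. Schwann cell and glial markers, which bear on Fabp7, summed to between 89.3 and 102 CPM in Trim28 cKO libraries, and to between 123 and 146 CPM in control libraries, with 2 of 9 tested higher and 1 lower. Of 10 pericyte and smooth muscle markers 1 was higher and 6 were lower, and of 8 tested oviduct and surface epithelium markers 3 were higher and 1 was lower. Oviduct and surface epithelium markers summed to 204, 456 and 212 CPM in Trim28 cKO libraries, against 122, 78.2 and 139 CPM in control libraries, with the highest sum in Trim28 cKO replicate 2. The part of these cells in the members' levels was not tested.

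The genes that supply fatty acids to these carriers were mixed. Of 17 genes of fatty acid uptake and activation, 4 were higher, 1 was lower and 12 did not pass the threshold (median log2 fold change 0.065). The higher ones were Acsl6, a long-chain acyl-CoA synthetase (log2 fold change 3.10), the fatty acid transporter Slc27a6 (1.27), lipoprotein lipase (Lpl, 1.20), which frees fatty acids from circulating lipoproteins, and the acyl-CoA carrier Dbi (0.73). Acsl6 was at 5.10, 13.2 and 4.96 CPM in Trim28 cKO libraries, against 0.872, 0.653 and 1.15 CPM in control libraries, without overlap. The transporter Slc27a4 was lower (log2 fold change -0.46, SE 0.084, adjusted p = 0.00564 by edgeR).

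Triglyceride synthesis and droplet growth genes also went both ways, with 3 higher, 3 lower and 9 not past the threshold of 15 tested (median log2 fold change 0.053). Cidea, a droplet fusion protein of brown fat, was at 30.9, 29.8 and 15.4 CPM in Trim28 cKO libraries, against 0.0769, 0.204 and 0.111 CPM in control libraries. Control libraries held 3, 5 and 5 counts of Cidea, and the log2 fold change was 7.67 (SE 0.45, adjusted p = 0.000143 by edgeR). In the same Trim28 cKO libraries adiponectin was at 0.513, 13.7 and 37.6 CPM. The part of adipocyte RNA in the level of Cidea was not tested. Fitm2, an endoplasmic reticulum protein of droplet budding, was higher (log2 fold change 0.65). Gpam, the acyltransferase of the first step of glycerolipid synthesis (log2 fold change -1.09), and the phosphatidate phosphatase Lpin2 (-0.60) were lower.

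Of 9 lipolysis genes, 4 were higher and none was lower, with a median log2 fold change of 0.65. They were the carboxylesterase Ces1d (log2 fold change 3.72, SE 0.49), lysosomal acid lipase Lipa (1.26, SE 0.24), the monoacylglycerol lipases Mgll (1.21, SE 0.15) and Abhd6 (0.93, SE 0.14). Ces1d was at 74.0, 52.4 and 80.4 CPM in Trim28 cKO libraries, against 9.18, 2.25 and 4.07 CPM in control libraries. The droplet lipase Pnpla2 (log2 fold change 0.45, adjusted p = 0.0982) and hormone-sensitive lipase Lipe (-0.20, adjusted p = 0.480), whose access perilipins control, did not pass the edgeR test. Of 18 fatty acid oxidation genes, 7 were higher, none was lower and 11 did not pass the threshold, with peroxisomal Ehhadh at a log2 fold change of 0.83 and mitochondrial Acadl at 0.74. The number of higher oxidation genes was 11 with DESeq2 and 4 without control replicate 1.

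PPAR nuclear receptors are activated by fatty acids and drive many of the genes above in fat and liver. Of 17 tested PPAR receptors, partners and targets, 2 were higher, 2 were lower and 13 did not pass the threshold (median log2 fold change -0.036). Pparg, the receptor of adipocyte differentiation, was at 15.4, 12.9 and 18.8 CPM in Trim28 cKO libraries, against 51.2, 36.1 and 46.6 CPM in control libraries. All Trim28 cKO libraries were below all control libraries (log2 fold change -1.51, SE 0.19, adjusted p = 0.00123 by edgeR). The coactivator gene Ppargc1a was lower (log2 fold change -0.86, adjusted p = 0.0315 by edgeR), while the receptor partner Rxra was higher (log2 fold change 0.60, adjusted p = 0.0314). When single libraries were left out, the count was 1 to 3 higher and 1 to 2 lower.

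Among the nearest tested neighbours of the other members, those of Fabp7 were both higher, Pkib (log2 fold change 2.82) and Smpdl3a (1.22), although Fabp7 itself was not called. Uhrf1, 12809 bases from Plin3, was lower (log2 fold change -2.01), as were Kif7 beside Plin1 (-0.95) and Haus6 and Dennd4c on either side of Plin2 (-0.47 and -0.51). Pag1 beside Fabp5 (0.82), Gm10570 at Fabp3 (2.10) and Gnai1 beside Cd36 (0.56) were higher. Fabp9 and Impa1 on either side of Fabp4, Gm9833 beside Fabp5, Pex11a beside Plin1, Ticam1 beside Plin3 and Sema3c beside Cd36 did not pass the threshold.

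The genes whose log2 CPM most nearly followed Fabp3 over the 6 libraries, among 12404 genes with a mean of at least 5 CPM, were Il1rn (Pearson r 0.999), the complement component C7 (0.998) and Nt5dc3 (0.997). C7 was at 421, 329 and 461 CPM in Trim28 cKO libraries, against 5.44, 20.6 and 5.00 CPM in control libraries, with control replicate 2 highest among controls as for Fabp3. For Plin4 they were Adnp2 (0.997), Npm1 (0.997) and Gpr141 (0.996). Gpr141 was at 0.545, 0.868 and 1.99 CPM in Trim28 cKO libraries, against 18.0, 6.82 and 25.8 CPM in control libraries, whereas Npm1, a nucleolar protein gene, was at 132, 142 and 148 CPM in Trim28 cKO libraries, against 204, 184 and 207 CPM in control libraries. These 6 points are the same libraries that separate the genotypes, so r is a description only.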

How the data were processed

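RNA of whole ovaries from 3 Trim28 cKO and 3 control mice was read as single-end, strand-marked libraries of polyadenylated RNA. The authors aligned reads to mm10 with STAR 2.5.3a and counted uniquely aligned reads per Ensembl gene (htseq-count 0.6.1p1 in union mode, raw counts). They deposited the counts with a signal of counts over a DESeq2 1.16.1 size factor and that signal per kb of median transcript length. The deposited log2 fold change, p-value and adjusted p-value columns are their own comparison (control over Trim28 cKO) and were not used. Tools are as the submitters' processing notes and the paper's methods give them.

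Genes passing filterByExpr (minimum count 10, minimum total 15) were TMM-scaled and tested with the quasi-likelihood functions of edgeR 4.0.16 (glmQLFit with robust set, then glmQLFTest; R 4.3.3), with Benjamini-Hochberg adjustment, and the fit was tested on simulated data. Counts were used for all tests, and the deposited signal only to compare levels of different genes. Alternatives were DESeq2 1.42.0, limma-voom 3.58.1, other scalings, filters and thresholds, and each library left out. Single values were compared with two-sided exact permutation tests. Named genes were the members, up to 2 called genes at either end of the log2 fold changes of each list, nearest tested neighbours, and the 3 genes most correlated with the members of highest and lowest fold change. A called gene that this rule would name is not reported here. Genes named beyond these were chosen after their values were seen. The members and lists were chosen with earlier results of these data known. Libraries of a group differed by more than sampling noise. The labels do not say more of how mice were drawn, and edgeR p-values set the group difference against the spread between these libraries only.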

Additional observations from a re-analysis of the deposited data

How the results depend on the processing

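Over 15 alternatives, Fabp3 (log2 fold change 3.48 to 4.46), Fabp5 (1.82 to 2.24) and Plin4 (-4.74 to -3.95) kept their call and direction, and Plin5 (-3.92 to -2.76) kept its direction. The number of members higher was 2, but 3 with limma-voom, 4 with the Wald test of DESeq2, and 2 to 4 when single libraries were left out. The number of members lower was 2, and 1 with no filter on low counts or at an adjusted p of 0.01, and 1 to 2 when single libraries were left out. In fits added after the marker levels were seen, it was 1 without Trim28 cKO replicate 3 and control replicate 1 and 0 without these and Trim28 cKO replicate 2, where 1 Trim28 cKO library was left. For Plin5 the range of adjusted p was 0.000943 to 0.106. The log2 fold change of Fabp7 lay between -0.15 (without control replicate 3, adjusted p = 0.838 by edgeR) and 1.04 (without Trim28 cKO replicates 2 and 3 and control replicate 1), and the cause was not tested. With main transcript lengths, chosen after the deposited lengths were seen, the share of Fabp7 in its family differed by -0.711 percentage points (-1.28 with the deposited lengths) and that of Plin3 by 12.1 (4.91 with the deposited lengths), because the lengths differ.

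Replicate numbers did not pair the libraries: the correlations of deviations of same-numbered libraries were -0.070, 0.059 and -0.168. With replicate number added as a block, 2 members were higher and 2 lower, and 3162 genes were higher and 2339 lower, against 3832 and 3189 without it. At an adjusted p of 0.01, 2238 genes were higher and 1528 lower, beyond a log2 fold change of 1 there were 1523 lower, and without control replicate 1 there were 2039 lower. Without Trim28 cKO replicate 3 and control replicate 1 there were 2183 higher and 1284 lower. Leaving out 1 library brought Fabp4, Plin1, Plin2 and Cd36 past the threshold, each in 1 of the 6 such fits, and changed no call of Fabp7 or Plin3.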
